A study of Homo sapiens with 6 samples.

Results

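Rab genes encode small GTPases of the Ras superfamily. They were taken as the rows of the deposited gene table whose symbol starts with RAB followed directly by a digit, leaving out names that mark interacting, activating or exchange proteins. This gave 64 of 16670 rows, and 8 further RAB-digit rows were left out by name. A total of 55 members could be tested, the filter being a deposited value of at least 11 in 3 or more libraries. The rule also took in RAB3IL1, an exchange factor, and RAB5IF, a protein named for an interaction with Rab5, neither of which is a Rab GTPase. Both are kept apart in the groups described here.

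A Rab GTPase is loaded with GTP by an exchange factor on a particular membrane, recruits effectors such as tethers and motor proteins there, and is switched off by a GTPase-activating protein. Prenyl groups at its end hold it in the membrane, and GDP dissociation inhibitors extract it and return it to the cytosol. Each family member marks a particular compartment, from the endoplasmic reticulum and Golgi to endosomes, lysosomes and secretory vesicles, and close paralogues often share a compartment.

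The libraries came from A549, an established line of human non-small cell lung cancer. Both groups had first spent 1 week in alisertib, which blocks Aurora A and so disturbs mitosis, and were senescent, so the controls carry that drug as well. The 3 untreated libraries received no further drug, and the 3 salinomycin libraries received salinomycin, a polyether ionophore, at 2.5 µM for 48 h. The labels call the libraries of a group biological replicates, and give neither the alisertib dose nor a vehicle for the untreated cells. They also do not say when the untreated cells were harvested, so salinomycin and up to 48 h of further culture cannot be told apart. Values are normalised units, that is, the deposited value less the 1 that had been added to it, divided by a factor for the composition of the library. The deposited totals lay within 0.692% of each other because the authors had rescaled them, and the reads recovered from the steps in the values ranged from 13539959 to 19641149 per library. All 5 epithelial markers were detected in both groups, with untreated and salinomycin means of 69665 and 11786 units for KRT8, 84124 and 20262 for KRT18, 2306 and 540 for CDH1, 46.7 and 19.0 for EPCAM, and 1898 and 3164 for KRT19. Of the alveolar markers, SFTPB and SFTPC lay under 1 unit in both groups, while NAPSA had means of 48.9 and 34.5, SFTPD 12.2 and 32.7, and NKX2-1 0.0 and 15.6 units. PECAM1, of endothelium, had means of 2.15 and 0.93 units. COL1A1, of fibroblasts, had means of 667 and 416 units, and the part of these markers in the results was not tested.

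Rab genes moved in both directions after salinomycin rather than as a block. Of the 55 tested members, 26 rose and 22 fell, and 7 did not pass limma's test at an adjusted p of 0.05. That is 87.3% of the members past the test, beside 81.9% of all 13088 tested genes (41.6% higher and 40.2% lower). A change of at least 2-fold was seen for 11 members that rose and 9 that fell, where 16.8% and 18.5% of all tested genes did so. The groups did not overlap for 49 of 55 members, beside 83.0% of all tested genes. The median log2 change was 0.11 for the members and 0.022 for all genes, and the median size of change in either direction was 0.646 and 0.701. Of the members that rose or fell, RAB3C, RAB33A and RAB43 could be tested only through the salinomycin group and RAB7B only through the untreated group, which set their direction. Among the other 51 members 23 rose and 21 fell, 8 and 8 of them by at least 2-fold, and the groups did not overlap for 45. These shares lie near the background, so the numbers say little about Rab genes as a family, and the pattern within the family is described in what follows. The median of the members was 0.062 without salinomycin replicate 1, -0.014 without salinomycin replicate 2 and -0.029 without salinomycin replicate 3. Members measured mainly in the salinomycin libraries drop out of the test in each of these fits, and the part of this in the medians was not tested. In bulk RNA, fewer cells of a type and less RNA per cell cannot be told apart.

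**Figure D1:**
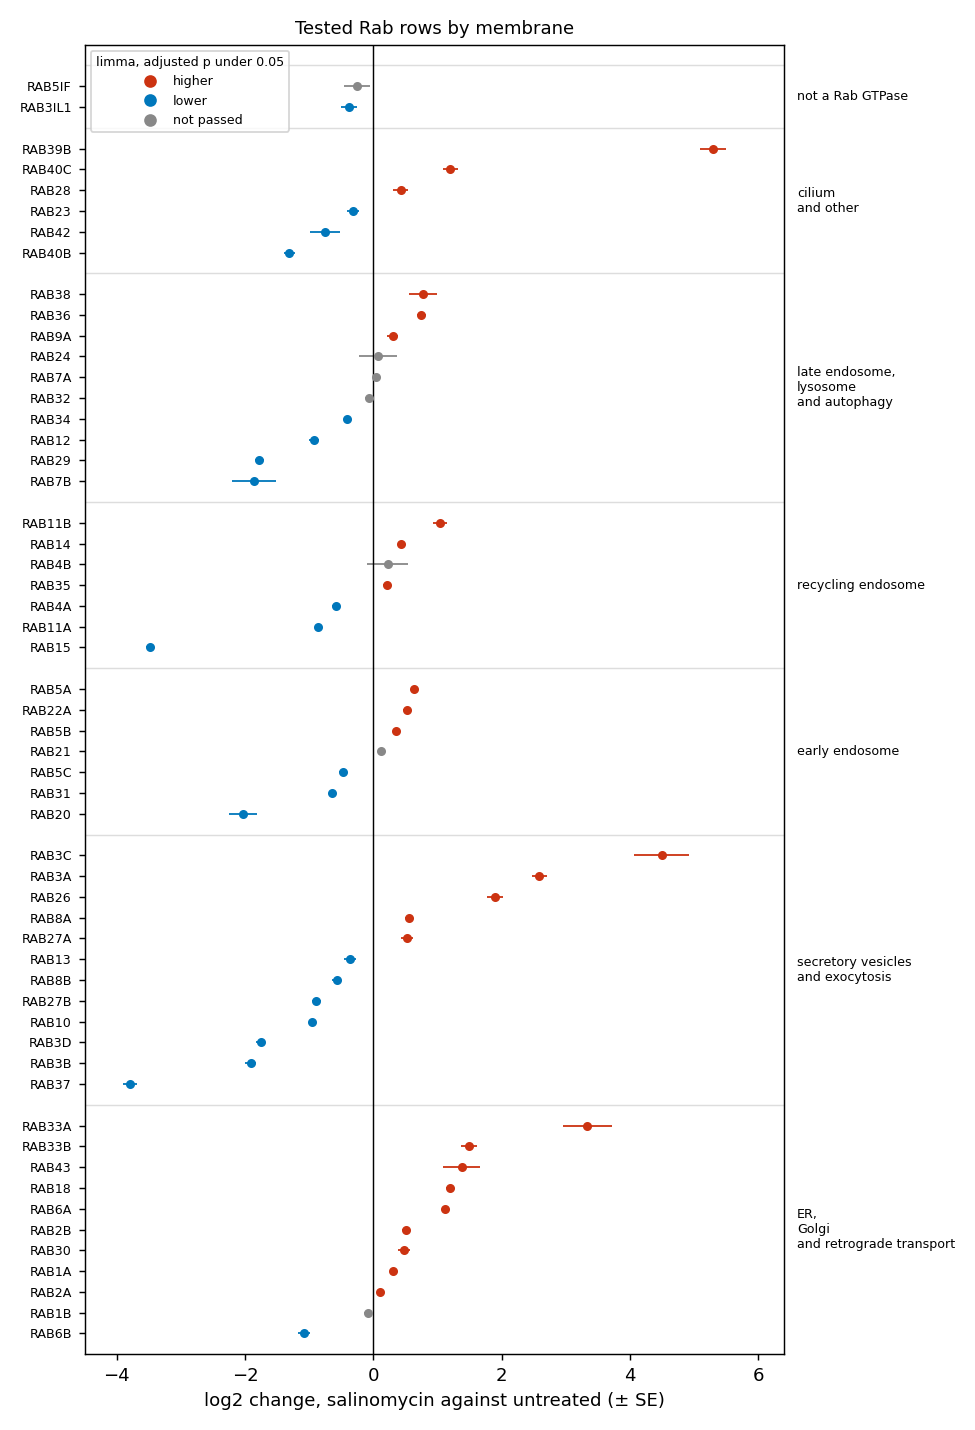
The horizontal axis gives the fitted log2 change of each of the 55 tested Rab rows (points, with bars of 1 SE), salinomycin against untreated, grouped by membrane. In the group of the endoplasmic reticulum and Golgi 9 of 11 points are higher (7 of 9 without RAB33A and RAB43, which passed the filter through salinomycin only), whereas secretory Rab genes spread from RAB37 at -3.79 to RAB3C, whose untreated level rests on 3 reads.

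Of the 55 tested members, 43 had a promoter in the RefSeq table (build GRCh38.p14), running from 250 bases before to 50 bases after the annotated start. These windows were searched on both strands for 4 motifs: ACGTGGC (the Golgi stress response element), TGACGTGG (a sequence bound by XBP1 and ATF6 in the unfolded protein response), TGATGCAA (a site of C/EBP-ATF dimers) and CACGTG (the E-box core bound by TFEB and TFE3). ACGTGGC was found in 3 of the 43 windows, beside 3.3% of all 27305 promoters, and CACGTG in 6 of the 43, beside 7.43%. TGACGTGG and TGATGCAA were in none of the 43 windows, beside 0.795% and 0.923% of all promoters. The promoters of RAB5A, RAB31 and RAB29 are shown because they hold such matches in members that went in different directions. The letters run 5′ to 3′ on the strand of the gene, with the matches in capitals:
RAB5A: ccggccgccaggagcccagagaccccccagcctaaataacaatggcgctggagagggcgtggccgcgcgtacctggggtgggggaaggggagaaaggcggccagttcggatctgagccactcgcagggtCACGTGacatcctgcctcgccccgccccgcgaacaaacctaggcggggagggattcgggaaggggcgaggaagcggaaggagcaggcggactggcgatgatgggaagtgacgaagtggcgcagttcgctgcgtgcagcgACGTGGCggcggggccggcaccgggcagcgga
RAB31: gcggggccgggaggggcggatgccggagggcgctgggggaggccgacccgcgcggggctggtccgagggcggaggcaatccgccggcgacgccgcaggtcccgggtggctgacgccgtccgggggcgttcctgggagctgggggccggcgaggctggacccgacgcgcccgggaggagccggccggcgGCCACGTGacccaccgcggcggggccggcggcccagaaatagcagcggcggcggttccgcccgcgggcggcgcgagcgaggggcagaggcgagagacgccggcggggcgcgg
RAB29: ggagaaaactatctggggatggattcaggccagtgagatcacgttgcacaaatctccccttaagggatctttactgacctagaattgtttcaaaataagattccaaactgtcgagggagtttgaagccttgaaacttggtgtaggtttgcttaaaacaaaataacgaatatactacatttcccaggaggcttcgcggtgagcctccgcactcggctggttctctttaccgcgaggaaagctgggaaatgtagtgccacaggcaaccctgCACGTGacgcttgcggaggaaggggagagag
The RAB5A window (chr3:19946847-19947146, plus strand) has CACGTG from position -121 and ACGTGGC from position 19, counted from the start as position 1 with no position 0. In the RAB31 window (chr18:9708051-9708350, plus strand) the 2 motifs overlap, with ACGTGGC on the opposite strand from position -62 and CACGTG from -60. The RAB29 window (chr1:205775433-205775732, minus strand) has CACGTG from position 20. The other members with a match were RAB4A, which fell, and RAB21 and RAB24, which did not pass. A match is a description of the letters, and binding was not measured.

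Rab genes of the endoplasmic reticulum and Golgi were mostly higher after salinomycin: 9 of 11 tested rose, RAB6B fell and RAB1B did not pass. Without RAB33A and RAB43, whose direction the filter fixed, 7 of 9 rose, beside 41.6% of all tested genes. No test compared this group with the others. RAB6A, which directs retrograde traffic at the Golgi (chr11:73675638-73761137 on GRCh38, minus strand, in GENCODE release 29), had 2290, 2287 and 2247 units in the untreated libraries and 4969, 4978 and 4911 units with salinomycin. The 3 salinomycin libraries lay far above the untreated ones and close to each other. The rise was 2.18-fold (log2 change 1.12 ± 0.04 SE, limma adjusted p = 3.17e-10). RAB18, a Rab of the endoplasmic reticulum and lipid droplets (chr10:27504174-27542237), went from 1097, 1110 and 1197 units to 2807, 2443 and 2547 units. Every salinomycin library was above every untreated one, and the gene rose 2.29-fold (limma adjusted p = 4.16e-09). RAB33B, a Golgi Rab that binds the autophagy protein ATG16L1 (chr4:139453232-139476609), had 147, 105 and 121 units untreated and 350, 370 and 323 units with salinomycin, again without overlap, a 2.8-fold rise (limma adjusted p = 2.51e-07).

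RAB1A, which acts in transport from the endoplasmic reticulum to the Golgi, had 4857, 4728 and 4716 units untreated and 6003, 5758 and 5874 units with salinomycin. The groups stood apart but by less than for RAB6A, with a rise of 1.23-fold (limma adjusted p = 5.11e-05). The closely related RAB1B ranged from 3310 to 3847 units untreated and from 3142 to 3476 units with salinomycin, with overlap between the groups (log2 change -0.08, limma adjusted p = 0.241). RAB2B and RAB30 had log2 changes of 0.51 and 0.48, both past the test, and RAB2A one of 0.11 that passed narrowly (limma adjusted p = 0.0484) and was lost when any library was left out. RAB33A and RAB43 passed the filter only through the salinomycin group, so they could only differ upward. For RAB33A, 10 recovered reads in the untreated group stood against 151 with salinomycin, a ratio of 11.3 (95% counting interval 5.99 to 24.1, which covers counting error only). For RAB43, 90.9% of its 50-base stretches are shared with other transcripts, mostly the readthrough ISY1-RAB43, so its counts are uncertain. RAB6A shares 21.6% of such stretches, 15.3% with RAB6C, which had at most 1.88 units in any library.

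The secretory group was split, with 5 members higher and 7 lower of 12 (4 and 7 of 11 without RAB3C, whose direction the filter fixed). Of all tested genes, 41.6% were higher and 40.2% lower. Within the RAB3 family, whose members act in regulated exocytosis of vesicles and granules, RAB3B and RAB3D fell while RAB3A and RAB3C rose. RAB3B (chr1:51907956-51990764) had 2731, 3016 and 3614 units untreated and 798, 846 and 821 units with salinomycin. All the salinomycin libraries were below the untreated ones, a fall of 3.77-fold (log2 change -1.91 ± 0.09 SE, limma adjusted p = 1.02e-09). RAB3A (chr19:18196784-18204074) went the other way, from 43.2, 45.7 and 54.4 units to 279, 305 and 291 units, which is 6.02-fold higher (limma adjusted p = 1.54e-09). RAB3D, chosen after its values were seen, had means of 786 and 232 units (SD 5.96 and 14.2, n = 3 each; limma adjusted p = 4.66e-10, lower). RAB3C had 3 recovered reads in the untreated group and 147 with salinomycin, a ratio of 36.8 (95% counting interval 12.3 to 180.0), and passed the filter through the salinomycin group only.

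RAB37, a Rab of secretory granules (chr17:74670578-74747335), had the deepest fall of the tested members. It had 595, 656 and 540 units untreated and 43.5, 39.4 and 43.2 units with salinomycin. The salinomycin libraries lay close together and far under the untreated ones, a fall of 13.9-fold (log2 change -3.79 ± 0.11 SE, limma adjusted p = 2.8e-11). RAB26, its closest paralogue in the family list and also a granule Rab, was chosen after its values were seen. It had 234, 254 and 169 units untreated and 805, 798 and 824 units with salinomycin, with no overlap, and rose 3.74-fold (limma adjusted p = 3.24e-08).

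RAB8A, which carries vesicles from the Golgi to the plasma membrane and the cilium, had 889, 833 and 859 units untreated and 1212, 1258 and 1325 units with salinomycin. It was higher in all 3 salinomycin libraries by 1.47-fold (limma adjusted p = 2.01e-06). The opposite-strand gene AC008894.2 overlaps 36.0% of its exons. RAB27A, which docks secretory lysosomes and exosome-bearing bodies, had 245, 274 and 228 units untreated and 382, 368 and 331 units with salinomycin, a rise of 1.44-fold without overlap (limma adjusted p = 0.000217). Their paralogues RAB8B and RAB27B fell, with log2 changes of -0.57 and -0.89 and means of 683 to 461 and 1531 to 828 units. RAB10, which acts in exocytosis at the plasma membrane, had 6104, 6459 and 5936 units untreated and 3237, 3130 and 3179 units with salinomycin (fold 1.94 lower, limma adjusted p = 3.24e-09). RAB13 had the smallest fall of the group at -0.36, and 38.3% of its 50-base stretches are shared with AL358472.6.

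**Figure D2:**
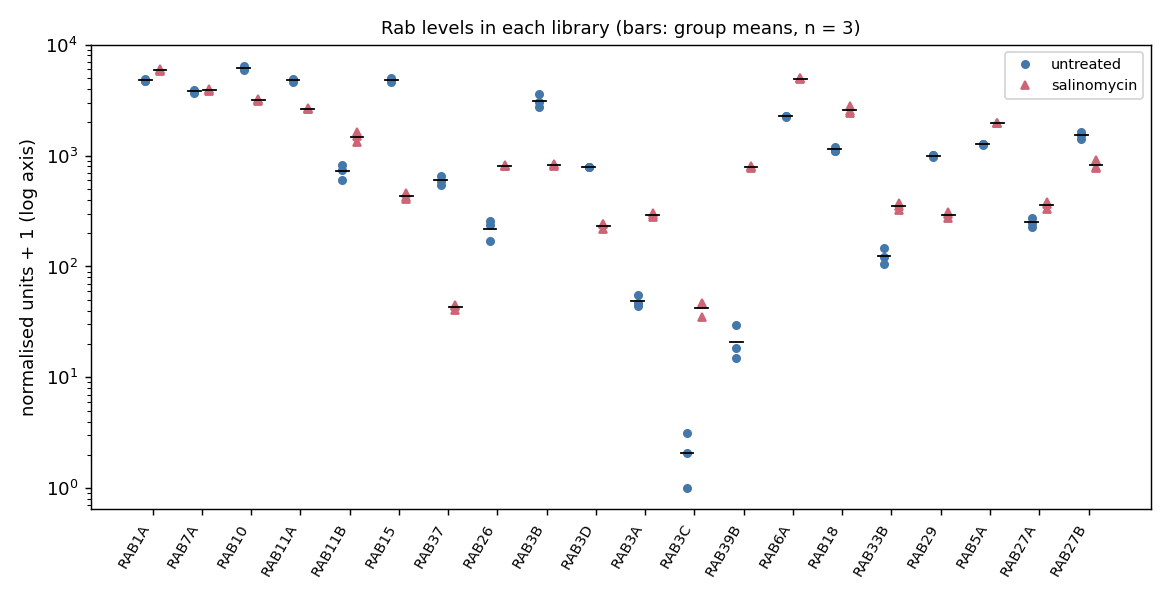
Normalised units plus 1 (vertical log axis) are plotted for each library of 20 Rab genes, with circles for untreated, triangles for salinomycin and bars for the means of 3 libraries. RAB15 and RAB37 drop by more than 10-fold, RAB39B climbs from at most 28.7 to at least 774 units, and RAB7A stays level.

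Early endosome Rab genes were divided, with 3 higher, 3 lower and RAB21 short of the threshold (limma adjusted p = 0.0698). The background was 41.6% of all tested genes higher and 40.2% lower. RAB5A, which drives fusion of early endosomes (chr3:19947079-19985175), had 1265, 1270 and 1250 units untreated and 1961, 1953 and 1951 units with salinomycin. The spread within each group was small beside the gap between them, and the gene rose 1.55-fold (limma adjusted p = 9.81e-08). RAB5B also rose, with a log2 change of 0.36, while RAB5C fell by 0.48 on the log2 scale, and 36.2% of the RAB5C stretches are shared with AC099811.2. RAB31, which acts between the trans-Golgi and endosomes (chr18:9708165-9862551), had 2195, 2145 and 2138 units untreated and 1401, 1362 and 1375 units with salinomycin. It was lower in every salinomycin library, by 1.56-fold (limma adjusted p = 8.28e-08). Its paralogue RAB22A had 905, 997 and 913 units untreated and 1421, 1306 and 1320 units with salinomycin, a rise of 1.44-fold with no overlap (limma adjusted p = 5.72e-06). RAB20 fell from a mean of 57.8 to 13.7 units (log2 change -2.03 ± 0.22 SE), on 151 recovered reads untreated and 47 with salinomycin.

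Among recycling endosome Rab genes, 3 rose, 3 fell and RAB4B did not pass, beside 41.6% higher and 40.2% lower of all tested genes. RAB15, a Rab of early and recycling endosomes that slows endocytic traffic (chr14:64945814-64973226), had 4785, 4610 and 5018 units untreated and 455, 407 and 425 units with salinomycin. The groups were wide apart, and the gene fell 11.2-fold (log2 change -3.48 ± 0.06 SE, limma adjusted p = 6.08e-13). RAB11A, which governs the return of receptors to the surface, had 4825, 4928 and 4595 units untreated and 2604, 2605 and 2689 units with salinomycin. Its level was lower by 1.82-fold in the salinomycin libraries, which did not overlap the others (limma adjusted p = 6.61e-09). RAB11B went up from 827, 606 and 736 units to 1327, 1507 and 1617 units, by 2.06-fold (limma adjusted p = 1.61e-06). RAB14 and RAB35 rose, with log2 changes of 0.43 and 0.21, and RAB4A, which shares 20.5% of its stretches with SPHAR, fell by 0.58. RAB4B had 28.5 ± 13.3 units untreated and 31.7 ± 7.77 with salinomycin (SD, n = 3), and shares 66.0% of its stretches with RAB4B-EGLN2.

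In the late endosome, lysosome and autophagy group, 3 of 10 rose, 4 fell and 3 did not pass. Without RAB7B, whose direction the filter fixed, 3 of 9 rose and 3 fell. All tested genes gave 41.6% higher and 40.2% lower. RAB7A, the central Rab of late endosomes and lysosomes (chr3:128726122-128814796), had 3895, 3794 and 3689 units untreated and 3834, 3926 and 3971 units with salinomycin. The groups overlapped, and the log2 change was 0.04 ± 0.05 SE (limma adjusted p = 0.387). RAB29, which recruits the kinase LRRK2 to Golgi and lysosomal membranes (chr1:205767986-205775460), had 1002, 979 and 1019 units untreated and 274, 307 and 295 units with salinomycin. It was lower in every salinomycin library, by 3.42-fold (limma adjusted p = 2.42e-10). RAB12, which acts in receptor degradation and autophagy, fell from 494, 559 and 500 units to 266, 279 and 268 units, by 1.91-fold (limma adjusted p = 2.53e-07). RAB36 rose from 302, 321 and 328 units to 509, 532 and 559 units, by 1.68-fold with no overlap (limma adjusted p = 1.16e-06), whereas its paralogue RAB34 fell by 0.41 on the log2 scale. RAB9A, which returns receptors from late endosomes to the Golgi, had a log2 change of 0.30 that did not pass without salinomycin replicate 2 (limma log2 change 0.25). RAB38 rose at low level (24.3 to 41.7 units), and RAB32 and RAB24 did not pass (60.3% of the RAB24 stretches are shared with MXD3). RAB7B passed the filter through the untreated group only, on 40 recovered reads against 13, a ratio of 0.244 (95% counting interval 0.12 to 0.465).

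RAB39B had the largest rise of any member with at least 50 units on average. This gene on the X chromosome (chrX:155258241-155264589, minus strand), known for its part in neurons, had 17.3, 28.7 and 13.9 units untreated and 774, 788 and 802 units with salinomycin. All 3 salinomycin libraries lay far above the untreated ones, a 39.3-fold rise (log2 change 5.30 ± 0.20 SE, limma adjusted p = 2.83e-10) on 53 and 2748 recovered reads. The paralogues RAB40B and RAB40C, which carry a SOCS box and join ubiquitin ligases, parted. RAB40B had 320, 314 and 341 units untreated and 134, 134 and 124 units with salinomycin, a fall of 2.48-fold (limma adjusted p = 4.73e-08). RAB40C had 221, 155 and 202 units untreated and 418, 444 and 455 units with salinomycin, a rise of 2.3-fold (limma adjusted p = 1.32e-06). Neither pair of groups overlapped. RAB28, of the cilium, rose by 0.43 on the log2 scale, while RAB42 and RAB23 fell by 0.75 and 0.32. The exons of RAB23 overlap the opposite-strand gene BAG2 over 57.7% of their length, and whether the counting used strand is not given in the sources used here. Opposite-strand genes also overlap 23.9% of the exons of RAB1B, 23.8% of RAB4B, 20.5% of RAB3D and 20.4% of RAB5IF. For RAB11B and RAB6A the overlaps are 12.2% and 12.0%, and some other members have smaller ones.

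Both rows that are not Rab GTPases moved little. RAB3IL1 had 119, 103 and 112 units untreated and 86.1, 86.3 and 83.5 units with salinomycin, lower in all 3 (limma adjusted p = 0.0105), and RAB5IF, with 52.6% of its stretches shared with TGIF2-RAB5IF, did not pass. The 9 members below the filter were RAB17, RAB25, RAB39A, RAB40A, RAB40AL, RAB44, RAB6C, RAB6D and RAB9B. RAB9B was the highest of them, with 11.9, 8.51 and 13.9 units untreated and 6.48, 7.5 and 4.69 units with salinomycin. RAB25 and RAB40A each had 0 recovered reads in the untreated group and 1 read with salinomycin, under the 3 reads that a count of 0 allows.

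The Rab rows together took a slightly larger share of all units after salinomycin. It was 0.372% ± 0.002 untreated and 0.391% ± 0.004 with salinomycin (SD, n = 3), without overlap between the libraries. This share is of a library's own total, so the composition factors cancel out of it. Those factors were 0.925, 0.940 and 0.937 untreated and 1.080, 1.067 and 1.065 with salinomycin. After division by them, the summed units of the Rab rows were lower in every salinomycin library than in any untreated one. The make-up of the Rab units shifted more. Rab genes of the endoplasmic reticulum and Golgi held 22.8% ± 0.45 of Rab units untreated and 34.2% ± 0.35 with salinomycin, and early endosome Rab genes 16.3% ± 0.05 and 19.5% ± 0.26. Secretory Rab genes held 22.5% ± 0.81 and then 14.4% ± 0.21, and recycling Rab genes 21.1% ± 0.19 and then 14.2% ± 0.20. The late endosome group moved from 15.6% ± 0.31 to 14.5% ± 0.51, and the cilium and other group from 1.52% ± 0.10 to 3.02% ± 0.06. In none of these 6 groups did the libraries of the conditions overlap, though the gap was narrow for late endosomes. The shares are parts of 1 whole, so a fall in some groups raises the share of others and the separations are not independent. These shares are weighted by level and gene length, so RAB6A and RAB1A carry much of the first. RAB10 and RAB3B carry much of the secretory share, and RAB15 and RAB11A of the recycling share. Most of the rise in the share of the cilium and other group came from RAB39B alone, so it does not describe that group as a whole.

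**Figure D3:**
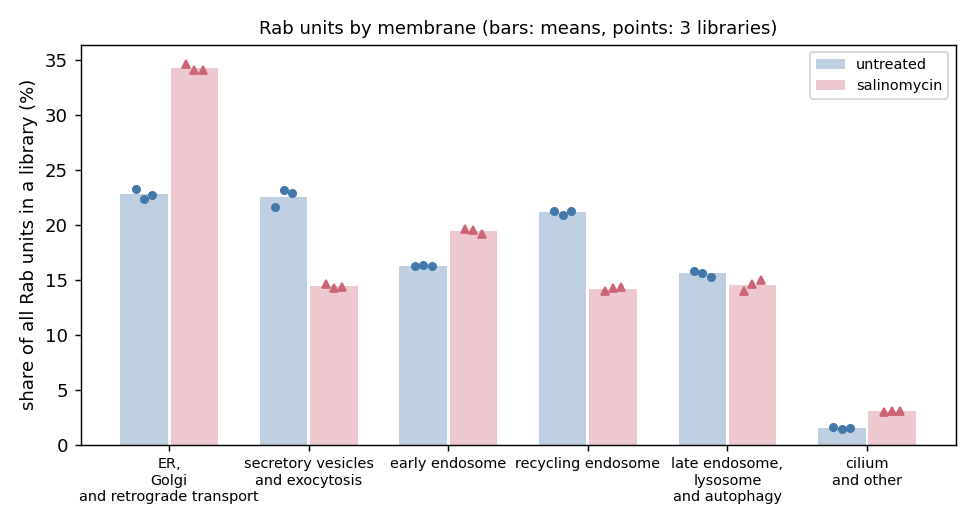
Bars give the mean share of all Rab units held by each membrane group (vertical axis, percent, from 0), and points the 3 libraries. The share of the endoplasmic reticulum and Golgi goes from 22.8% to 34.2%, and those of the secretory and recycling groups go to 14.4% and 14.2%.

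Per kilobase of exon, which allows levels of different genes to be compared, RAB1A came first in both groups, at 1948 ± 31.9 units per kb untreated and 2402 ± 50.1 with salinomycin (SD, n = 3). In untreated cells RAB1B (1760 ± 140 units per kb), RAB10 (1744 ± 75.6), RAB34 (1706 ± 82.5) and RAB7A (1689 ± 45.9) followed, and these 4 neighbours lay within each other's spread. RAB15 was sixth at 1248 ± 53.2 units per kb and stood at rank 32 with salinomycin, at 111 ± 6.37. RAB6A went from rank 10 (642 ± 6.74 units per kb) to rank 4 (1398 ± 10.2). With salinomycin RAB7A (1742 ± 31.1) and RAB1B (1660 ± 85.4) held ranks 2 and 3 within about their spread, and RAB10 came down to rank 6 (900.0 ± 15.1).

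The ratio of 2 paralogues within a library does not depend on how that library was scaled. Of 26 pairs in 17 families, 19 had a mean ratio that changed by at least 2-fold, and in 16 pairs the members were called in opposite directions. In 5 of the 26 pairs a member passed the filter through 1 group only (RAB3C, RAB33A or RAB7B), and of the other 21 pairs 14 changed by at least 2-fold and 14 had opposite calls. Such counts were not computed for pairs of other genes. Of all tested genes 41.6% rose and 40.2% fell, so the counts do not show that Rab paralogues part more often than other genes. The 5 largest changes of the log2 ratio were RAB3B to RAB3C (-6.41), RAB3C to RAB3D (6.25), RAB39B to RAB42 (6.05), RAB26 to RAB37 (5.70) and RAB3A to RAB3B (4.50), with the first 2 resting on the 3 untreated reads of RAB3C. For RAB26 to RAB37 the log2 ratio was -1.35, -1.37 and -1.67 in the untreated libraries and 4.18, 4.31 and 4.22 with salinomycin. The ratio was thus below 0 on the log2 scale in every untreated library and above 0 in every salinomycin library. RAB3A to RAB3B had -5.95, -6.01 and -6.03 untreated and -1.52, -1.47 and -1.49 with salinomycin, negative in all 6 libraries but nearer to 0 after salinomycin.

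Other pairs were chosen after their values were seen. The log2 ratio of RAB6A to RAB6B changed by 2.21, of RAB11A to RAB11B by -1.90, of RAB27A to RAB27B by 1.42, of RAB22A to RAB31 by 1.17, of RAB8A to RAB8B by 1.13 and of RAB5A to RAB5C by 1.11. The log2 ratio of RAB22A to RAB31 was -1.20 ± 0.09 untreated and -0.03 ± 0.05 with salinomycin (SD, n = 3). That of RAB5A to RAB5C was -0.06 ± 0.04 and 1.05 ± 0.01. RAB3B to RAB3D changed by -0.16, and its libraries overlapped (two-sided exact permutation p = 0.4). In 24 of the 26 pairs the exact permutation p was 0.1, the smallest that 3 against 3 libraries can give, with a Benjamini-Hochberg value of 0.108 over the pairs. Pairs of a family share genes and are not independent of each other.

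**Figure D4:**
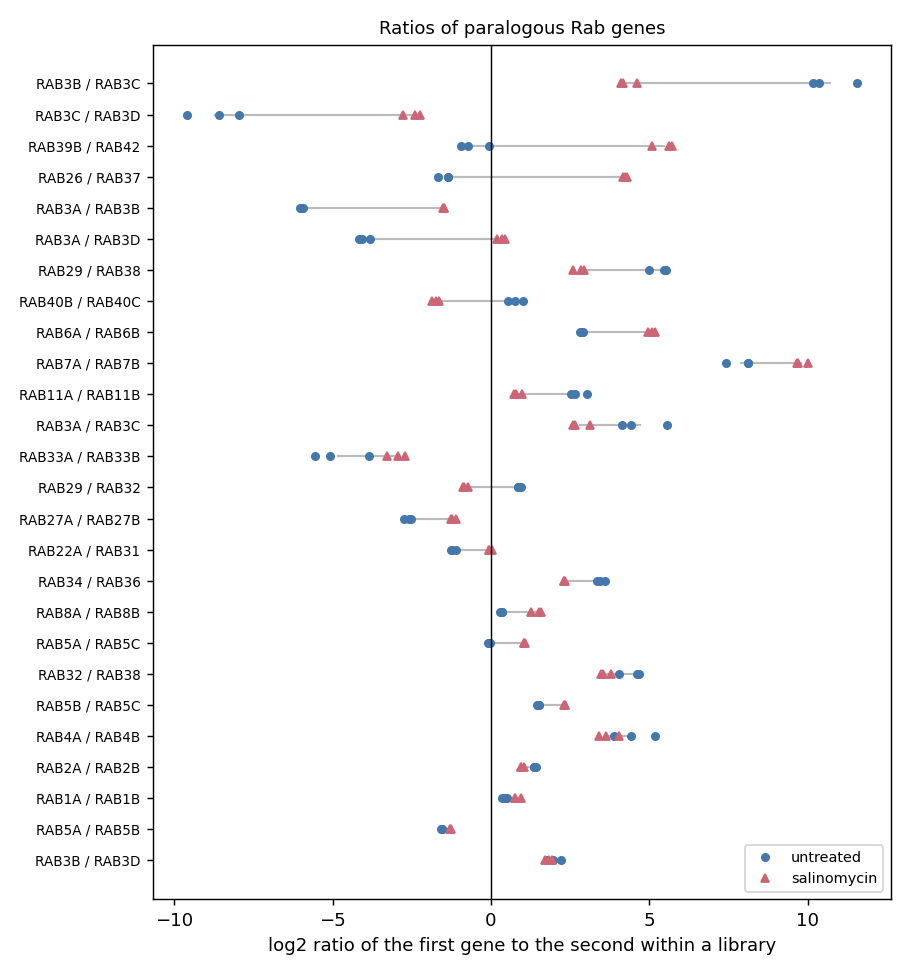
The horizontal axis gives the log2 ratio of the first to the second gene of each of 26 paralogue pairs, with circles for untreated and triangles for salinomycin libraries, 3 each. The conditions stand apart for most pairs and overlap for RAB4A to RAB4B and RAB3B to RAB3D.

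Genes that act on or through Rab GTPases, 147 in 5 lists, also moved both ways, and each list is set beside the 41.6% higher and 40.2% lower of all tested genes (81.9% in either direction). Of the 9 that prenylate, escort or extract Rab proteins, 5 rose and 2 fell, 77.8% in all (7 and 1 with library totals alone as scaling). RABAC1, a membrane receptor that helps to release Rab proteins from their inhibitors, had 166, 130 and 149 units untreated and 468, 556 and 667 units with salinomycin, 3.76-fold higher (limma adjusted p = 4.34e-08). RABGGTA, a subunit of the prenylating transferase, rose 1.82-fold, while CHML, a Rab escort protein, fell 1.85-fold (limma adjusted p = 7.89e-08 and 0.000188). GDI2, a dissociation inhibitor chosen after its values were seen, had a log2 change of 0.47.

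Of 45 exchange factors 21 rose and 17 fell, 84.4% in all and near that background (25 and 9 with library totals alone). RAB3IL1 is also a tested Rab row and is among the falls of both counts. Among the 44 left without DENND1C, which passed the filter through 1 group only, 20 rose and 17 fell. RGP1, part of the exchange factor of RAB6, had 1126, 1118 and 1207 units untreated and 3468, 3605 and 3443 units with salinomycin, 3.05-fold higher (limma adjusted p = 6.35e-11). Its partner RIC1, chosen after its values were seen, had a log2 change of 0.48. DENND2B, an exchange factor of RAB13, fell 4.31-fold and RINL, of the RAB5 group, 3.38-fold (limma adjusted p = 1.42e-10 and 1.49e-08). MON1A, MON1B and CCZ1, which load RAB7A and were also chosen after their values were seen, had log2 changes of 1.17, 0.79 and 0.59, beside 0.04 for RAB7A itself.

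Of 39 tested genes listed as GTPase-activating proteins 20 rose and 14 fell, 87.2% in all beside 81.9%. Being listed does not show that a protein has this activity, which was not measured. Among the 36 left without TBC1D30, SGSM3 and GRTP1, which passed the filter through 1 group only, 20 rose and 13 fell. EVI5L, TBC1D15, which acts on RAB7, and TBC1D23, a TBC domain protein of the trans-Golgi, rose 3.47-fold, 3.03-fold and 2.83-fold (limma adjusted p = 5.1e-08, 4.07e-10 and 1.98e-10). RAB3GAP2, a subunit of the complex that inactivates RAB3 and loads RAB18, had a log2 change of 1.19, as did RAB18, whereas its partner RAB3GAP1 had one of -0.003 and did not pass (limma adjusted p = 0.961). TBC1D25, which acts on RAB33B, had 1.41 beside 1.49 for RAB33B. These 3 were chosen after their values were seen.

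Effectors gave 24 higher and 17 lower of 49 tested, 83.7% in all beside 81.9%. Among the 44 effectors at 10 or more units in all 6 libraries, 19 rose and 17 fell. Among those with a mean of 50 or more units the largest changes past the test were falls of RIMS3, of the RIM family of vesicle release (405, 360 and 410 to 52.8, 38.4 and 37.5 units), SYTL2, which binds RAB27 (log2 change -1.74), and MYO5C, a myosin of secretory granules (-1.72). RIMS1, MYRIP and SYTL1 passed the filter through the salinomycin group only and could only come out higher, on 1, 3 and 8 recovered reads untreated and 90, 121 and 123 with salinomycin. Their ratios were 67.5 (95% counting interval 11.8 to 2696), 30.3 (10.1 to 149) and 11.5 (5.67 to 27.3). GOLGA2, the Golgi tether that binds RAB1, and PLEKHM1, a lysosomal adaptor of RAB7, had 1.33 and 1.46, and these 5 were chosen after their values were seen. Of the 3 genes that add or remove phosphate on Rab proteins, the kinases LRRK1 and LRRK2 fell 3.73-fold and 2.29-fold (limma adjusted p = 6.84e-10 and 2.63e-07). The phosphatase PPM1H rose 1.58-fold (limma adjusted p = 5.62e-07).

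**Figure D5:**
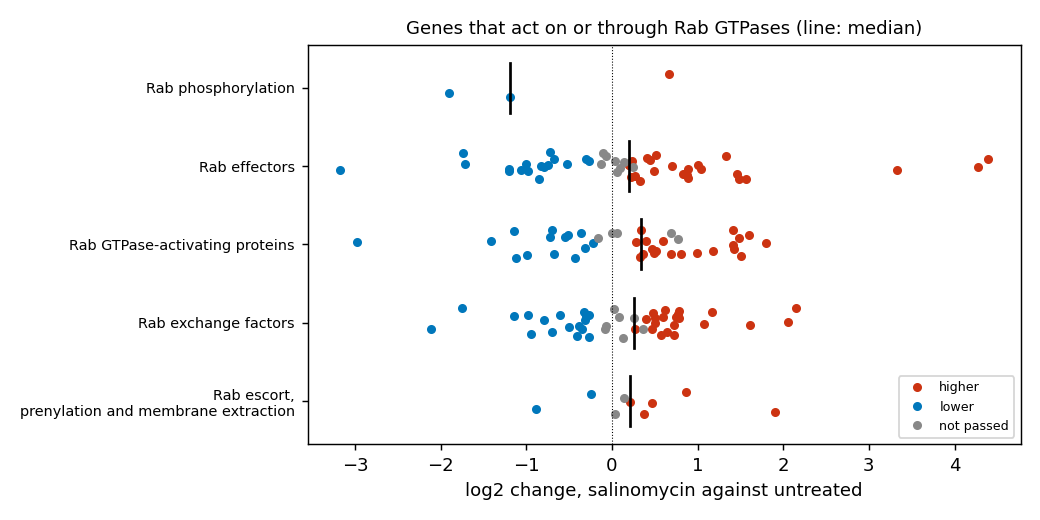
Points give the log2 change (horizontal axis) of each tested gene of 5 lists of Rab regulators and effectors, coloured by limma's call, and short vertical lines the medians. The 4 larger lists have points on both sides of 0 and medians between 0.20 and 0.34.

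The authors' deposited table of gene set enrichment held 5 sets named for Rab proteins. In the authors' deposited table, the Reactome set for Rab regulation of trafficking had a normalised enrichment score of 1.53 (adjusted p = 0.0297). In the authors' deposited table, the set of exchange factors had 1.31 (adjusted p = 0.218), Rab geranylgeranylation 0.784 (adjusted p = 0.924) and Rab genes in bladder cancer 0.64 (adjusted p = 0.967). The Gene Ontology set for Rab signal transduction had -0.776 in the authors' deposited table (adjusted p = 0.9). Only the first of the 5 was under 0.05 there.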

How the data were processed

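Gene-level RNA-seq values of 6 libraries, 3 untreated and 3 salinomycin, were analysed. Per the submitters' processing notes the build was GRCh38. Aligner, read counter, strand setting and annotation are not given in the sources used here. Deposited signal values were integers rescaled by the authors to near-equal totals, with a lowest value of 1. A second table held a normalised enrichment score and adjusted p-values of the authors, per the file headers.

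After the added 1 had been taken off, values were divided by trimmed-mean factors (30% and 5% trimming). Genes with 10 or more in at least 3 libraries, 13088 of 16670, were tested on the log2 scale, with a pseudocount of 1, in limma 3.58.1 in R 4.3.3 (mean-variance trend, Benjamini-Hochberg over all tested genes, threshold 0.05). Fold changes are on this log2 scale, which understates those of low genes. Reads were recovered from the steps that rescaling leaves among low values, and are estimates; ratios of reads were scaled for depth and composition, and intervals and floors of 3 reads cover counting error only. Chi-square per gene between libraries of a group ranged from 2.8 to 6.63, so each was counted once. Paralogue ratios were tested by two-sided exact permutation.

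Members, lists and tests were chosen with earlier results of these data known. Library values are given for the 3 largest called changes with a mean of 50 or more units in each membrane group, for RAB1A, RAB5A, RAB6A, RAB7A, RAB8A, RAB11A and RAB27A, and the 3 largest of each list and the 5 largest paralogue changes are named. Others were chosen after their values were seen. A result of the lists is not reported here. Coordinates are from GENCODE release 29, which matched all 64 members. Shared stretches are 50-base runs found in transcripts of another gene. These stretches and the exon overlaps were computed for tested Rab rows only, so the regulators and effectors, such as CCZ1, were not checked for them.

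Same-numbered libraries correlated in their deviations at -0.172, -0.0131 and -0.0326, beside -0.154 to 0.194 for differently numbered ones. No shared effect of a number was seen, which does not show that the libraries were prepared independently. Alternatives were upper-quartile, median-of-ratios and library-size scaling, trimmed-mean factors without mitochondrial genes, no filter and a filter of 50, pseudocounts of 0.5 and 8, limma-voom on recovered reads, a replicate block, and leaving out each library. The fit was tested on simulated data.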

Additional observations from a re-analysis of the deposited data

How the results depend on the processing

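Counts of Rab genes that rose or fell stayed within 1.5 times the reported 26 and 22 under all 16 alternatives (21 to 28 higher and 19 to 24 lower), and no Rab gene changed sign while called. The median log2 change of the Rab genes, 0.11, was 0.024 with upper-quartile scaling, 0.301 with library totals alone, and between -0.029 and 0.117 when 1 library was left out. Library totals alone moved the median of all genes by 0.19. They left 1 fall among the escort and prenylation genes and 9 among the exchange factors, in place of 2 and 17. RAB13, RAB23 and RAB3IL1 lost their calls and RAB7A (0.24) and RAB21 (0.32) passed as higher under that scaling. Upper-quartile scaling ended the calls of RAB2A and RAB35 and let RAB1B (-0.17) and RAB32 (-0.16) pass as lower. RAB21 also passed with factors computed without mitochondrial genes and without salinomycin replicate 3. With the replicate block, 25 Rab genes rose and 22 fell, and RAB2A (log2 change 0.11) was the 1 Rab gene to lose its call; of 3 same-numbered pairs none correlated above 0. RAB2A was also lost with median-of-ratios scaling. Between 17 and 20 paralogue pairs changed at least 2-fold under other pseudocounts or with 1 library left out. With 3 libraries a group, members at a few reads (RAB3C, RAB33A, RAB7B, RAB43) are limited by depth, and their ratios carry wide counting intervals.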

Other observations

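Among Rab genes at 1000 units or more on average, 5 of 22 (22.7%) changed by at least 2-fold past the test, beside 29.5% of all 3814 tested genes of that level. From 100 to under 1000 units the count was 10 of 22 (45.5%), beside 30.8% of 6530 genes. Under 100 units it was 5 of 11 (45.5%), beside 53.8% of 2744 genes. Of these 5, all but RAB20 (RAB33A, RAB3C, RAB43 and RAB7B) passed the filter through 1 group only, which set their direction. These are descriptions with no test of the difference, and the level bins were set on the mean over all 6 libraries.

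DENND4C, an exchange factor of RAB10, had 1296, 1501 and 1603 units untreated and 1277, 1198 and 1091 units with salinomycin (log2 change -0.30), beside -0.95 for RAB10. The other DENND4 genes of the list differed in direction, with log2 changes of 0.77 for DENND4A and -0.27 for DENND4B. MLPH, which links RAB27 to a myosin motor, had means of 5389 and 2988 units (log2 change -0.85), beside -0.89 for RAB27B and 0.53 for RAB27A. All of these passed limma's test, and the DENND4 genes and MLPH were chosen after their values were seen.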
